A study of Mus musculus with 47 samples.

Results

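The GABA-A receptor is the chloride channel through which GABA gives fast inhibition in the brain, and the mRNAs of 7 of its subunits, Gabra2, Gabra3, Gabra4, Gabra5, Gabrb1, Gabrb2 and Gabrg1, were examined here in brainstem and hippocampus. They are 7 of the 29858 genes counted in both regions, and each was found by its Ensembl identifier as a single row in both count tables. The genes were chosen by name with the TG against WT fold changes of these mice in view, so every TG against WT value of a listed gene below is a description without a test. Diet, the genotype by diet interaction and the regions were tested, with the reservation that the diet contrasts use the same libraries as the genotype contrasts.

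Each receptor is a ring of subunits that usually combines alpha and beta subunits with a gamma or delta subunit. The alpha subunit shapes GABA affinity, kinetics and the response to benzodiazepines, and the site for GABA itself lies between alpha and beta subunits. Receptors with the alpha 2 subunit (Gabra2) are known at synapses, including those on the initial part of the axon, and those with the alpha 5 subunit (Gabra5) are typical of hippocampal pyramidal cells and act largely outside synapses.

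The mice were males on a C57BL/6 background. TG mice carried a human mutant alpha-synuclein transgene under the Thy1 promoter, which is active in neurons of the central nervous system, and were bred as a homozygous colony. WT mice carried no transgene and came from a parallel colony with the same outcross, so genotype and colony cannot be told apart. Mice of both genotypes ate a standard chow diet (SD) or a high-fat diet (HFD) from weaning to about a year of age, which gives the groups WT_SD, WT_HFD, TG_SD and TG_HFD. RNA of hippocampus and of brainstem, which is the medulla here, was sequenced in 47 libraries, 6 per group and region except 5 for WT_SD brainstem.

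Total counts ranged from 10020784 to 15078812 per library in brainstem and from 11945971 to 17328447 in hippocampus. The transgene stood at 3412 to 4893 CPM (read counts scaled to a common library size) in TG brainstem and 4083 to 4954 CPM in TG hippocampus, against at most 3.48 CPM in any WT library. Markers of the regions matched the labels, with Neurod6 of hippocampal pyramidal cells at 186 to 260 CPM in hippocampus and at most 5.94 CPM in brainstem, and Slc6a5 of glycinergic neurons at 234 to 460 CPM in brainstem and at most 0.52 CPM in hippocampus. No library stood apart as a copy of another, the mean squared difference of any 2 libraries of a group being at least 3.66 times that of counting error. Levels below are CPM after trimmed-mean (TMM) scaling over all 47 libraries, and ± is the SD over libraries. In whole tissue, fewer cells of a type and less RNA per cell cannot be told apart.

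Of the 7 genes, 4 lie in a cluster on chromosome 5 in the order Gabrg1, Gabra2, Gabra4 and Gabrb1. The start of Gabrg1 lies 253 kb from that of Gabra2 on the far side from Gabra4 and Gabrb1, whose starts are both 562 kb away. Gabra4 and Gabrb1 are read in opposite directions, their RefSeq starts are only 387 bases apart, and the genes overlap there, so without strand a read in the overlap could belong to either. Gabra5 is on chromosome 7, Gabrb2 on chromosome 11 and Gabra3 on chromosome X. The windows of 250 bases upstream of the starts of Gabra2 and Gabrg1 are shown for the contrast of these cluster neighbours described below. Gabra2 gave a larger fitted difference between TG and WT than Gabrg1. Gabrg1 also spread widely in some groups, with an SD of log2 CPM above that of 33.13% of genes (TG_HFD hippocampus) to 91.49% (WT_HFD hippocampus). The windows are RefSeq sequence of build GRCm38.p6, on the minus strand, at chr5:71095850-71096099 and chr5:70842618-70842867, and capitals mark each CG dinucleotide.
Gabra2: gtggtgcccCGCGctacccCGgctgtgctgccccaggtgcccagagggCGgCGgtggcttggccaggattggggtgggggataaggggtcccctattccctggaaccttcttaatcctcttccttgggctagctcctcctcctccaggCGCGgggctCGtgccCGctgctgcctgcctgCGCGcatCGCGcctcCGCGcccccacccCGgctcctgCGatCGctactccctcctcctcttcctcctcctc
Gabrg1: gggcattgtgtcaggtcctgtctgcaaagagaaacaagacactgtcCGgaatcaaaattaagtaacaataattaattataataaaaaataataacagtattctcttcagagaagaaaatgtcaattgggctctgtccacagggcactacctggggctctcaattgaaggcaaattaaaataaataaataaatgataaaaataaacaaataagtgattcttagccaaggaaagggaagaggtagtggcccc

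The Gabra2 window held 18 CG dinucleotides and 70.0% G and C, and the Gabrg1 window 1 CG and 35.6% G and C. Of all 32851 RefSeq start windows of this length, 21.7% held at least as many CG as Gabra2 and 92.1% at least as many as Gabrg1. The letters GGGCGG on either strand, found in 32.7% of all windows, were present upstream of Gabra2 and Gabra4 and of 1 of the 3 starts of Gabrb2, and in no other window of the listed genes. TATAAA on either strand, found in 12.4% of all windows, was present for both starts of Gabra3 and for 1 start of Gabrb2. All 7 genes matched the RefSeq table, with 11 starts in all. A match is a description of the letters and no evidence of a bound factor.

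Gabra2 was higher in TG than in WT brainstem on both diets. In WT_SD brainstem the 5 libraries gave 57.01, 59.33, 82.03, 34.08 and 74.98 CPM, with a mean of 61.5 ± 18.6 (n = 5). In TG_SD brainstem the 6 libraries lay between 93.12 and 108.4 CPM, with a median of 100.9 and a mean of 100.9 ± 5.23 (n = 6). Every TG_SD library was above every WT_SD library, a pattern that 0.292% of 13334 genes showed in this direction.

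On HFD the same ordering was seen. The WT_HFD brainstem libraries ranged from 51.85 to 80.34 CPM with a median of 55.98 and a mean of 59.9 ± 10.9 (n = 6). The TG_HFD libraries ranged from 97.43 to 121.7 CPM with a median of 99.16 and an SD of 9.42 (n = 6). These groups did not overlap either, which 0.39% of genes showed in this direction.

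In the fit of all 4 brainstem groups, the log2 fold change of Gabra2 in TG against WT was 0.70 (SE 0.119, 1.62-fold) on SD and 0.74 (SE 0.144, 1.67-fold) on HFD. A gene was called where the Benjamini-Hochberg adjusted p of edgeR's quasi-likelihood test was at most 0.05 and the absolute log2 fold change at least 0.3. By that rule 1 of the 7 genes, Gabra2, was called on either diet, beside 0.142% of 13340 tested genes on SD and 0.0525% on HFD. Since Gabra2 headed the list for this reason, nothing is read from these calls. The direction held across settings and the call did not. On SD the call was lost in 5 of 12 alternatives, among them the model without surrogate variables (covariates estimated from the data), and on HFD in 3 of 12.

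**Figure D1:**
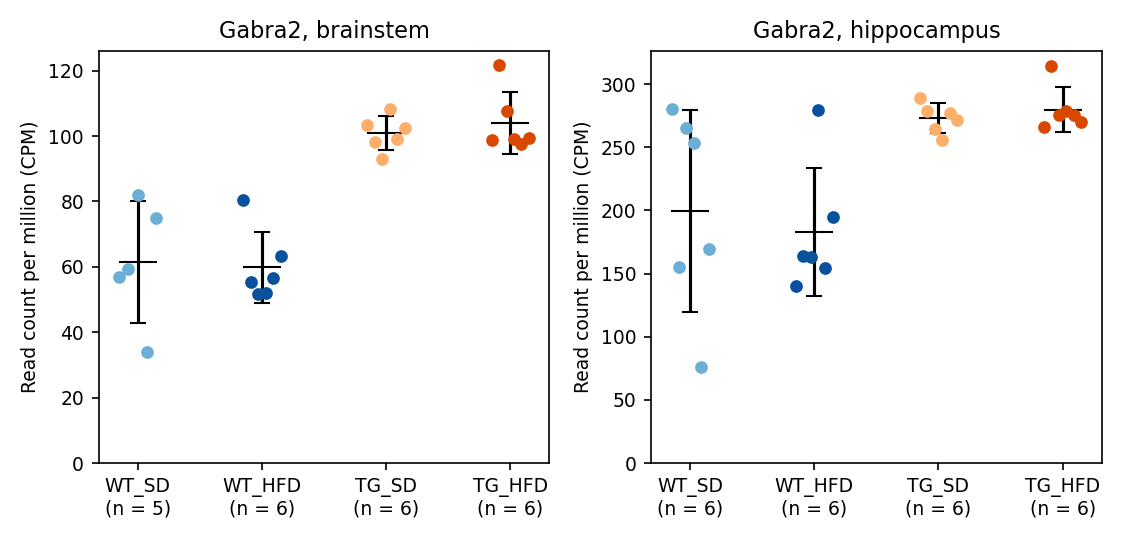
Gabra2 level in each library, in CPM after TMM scaling (y axis, from 0), by genotype and diet group (x axis), in brainstem (left) and hippocampus (right), with black bars for the group mean ± SD. The TG points lie close together, at 93.12 to 121.7 CPM in brainstem and 255.8 to 314.4 CPM in hippocampus, while the WT points spread from 34.08 to 82.03 and from 75.9 to 280.3 CPM.

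Hippocampus gave higher levels of Gabra2 and groups that overlapped. The WT_SD libraries gave 280.3, 155, 264.9, 253.7, 75.9 and 169.3 CPM, with a mean of 199.9 ± 79.9 (n = 6). The TG_SD libraries ranged from 255.8 to 289.3 CPM with a median of 274.6 and a mean of 273 ± 11.7 (n = 6). Of the WT_SD libraries, 4 lay below every TG_SD library and 2 within their range.

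On HFD the WT libraries gave 140.1, 164.2, 163.5, 279.4, 154.6 and 194.5 CPM, with a mean of 182.7 ± 50.6 (n = 6). The TG_HFD libraries ranged from 266.1 to 314.4 CPM with a median of 275.2 and a mean of 279.8 ± 17.5 (n = 6). Of the WT_HFD libraries, 5 of 6 were below the TG_HFD range. The fitted log2 fold change in TG against WT was 0.47 (SE 0.149, 1.39-fold) on SD and 0.60 (SE 0.19, 1.51-fold) on HFD. With 1 library left out of the fit, the first fell to as low as 0.26 (without WT_SD number 7; also 0.29 without WT_SD number 8) and the second to as low as 0.35 (without WT_SD number 3). None of the 7 genes was called in hippocampus by the edgeR test on either diet, and DESeq2 called none either, beside 0.0904% of 13272 genes called on SD and 0.226% on HFD. On HFD, Gabra2 was called in 6 of 12 alternatives, among them the models with fewer than the 4 surrogate variables. As in brainstem, nothing is read from whether a listed gene was called here, since the list was chosen with these fold changes in view.

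The WT libraries differed widely from each other in Gabra2. The SD of log2 CPM among WT_SD hippocampus libraries was 0.72, larger than in 99.87% of 13271 tested genes, with 16 genes above it and a median over genes of 0.126. Among WT_HFD hippocampus libraries it was 0.35, larger than in 98.32% of genes. In WT_SD brainstem it was 0.49, larger than in 98.76% of 13334 genes, and in WT_HFD brainstem 0.24, larger than in 88.51%.

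In each WT group 1 library carried much of this spread. Without number 7, the SD in WT_SD was 0.40 in hippocampus (larger than in 98.87% of genes) and 0.26 in brainstem (78.12%). Without number 6, the SD in WT_HFD hippocampus was 0.17 (74.01%). Without number 1, the SD in WT_HFD brainstem was 0.12 (45.93%).

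The TG libraries showed the opposite. The SD of log2 CPM of Gabra2 was 0.07 in TG_SD brainstem, 0.12 in TG_HFD brainstem, 0.06 in TG_SD hippocampus and 0.09 in TG_HFD hippocampus, and between 7.535% and 30.83% of genes had a smaller one. Over both diets the SD of log2 CPM was 0.35 among 11 WT and 0.10 among 12 TG brainstem libraries, and 0.54 among 12 WT and 0.07 among 12 TG hippocampus libraries. With the WT_SD library of number 7 left out, the WT values were 0.25 in brainstem and 0.39 in hippocampus. The differences in spread were not tested.

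The same WT numbers were low or high in both regions. Labels number the libraries within a group, and 17 numbers occur in both regions of the same group, though the labels do not say that a number is a mouse. WT_SD number 7 had the lowest Gabra2 of all brainstem libraries (34.08 CPM) and of all hippocampus libraries (75.9 CPM). WT_SD number 6 was at 82.03 CPM, the highest WT brainstem library, and at 253.7 CPM in hippocampus. Over the 8 WT numbers the values of both regions rose together (Pearson r = 0.93 on the log2 scale, Spearman rho = 0.905), and over the 9 TG numbers they did not (r = 0.0144, rho = -0.183), both given as descriptions. Over all genes, libraries that shared group and number between regions had correlations of -0.104 to 0.593 after group means were removed, and 10 of 17 exceeded 0.1. Libraries of the same group with different numbers had -0.418 to 0.394, and 31 of 121 exceeded 0.1. This difference was not tested.

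**Figure D2:**
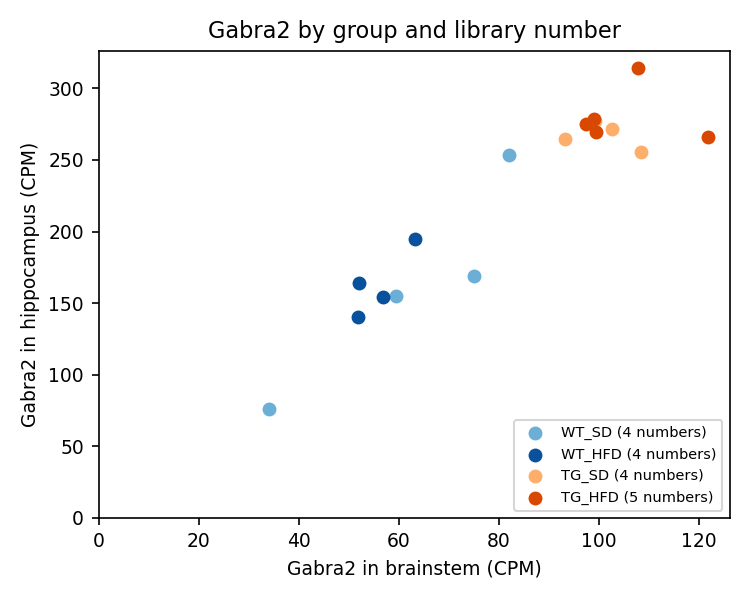
Gabra2 in brainstem (x axis, CPM) against Gabra2 in hippocampus (y axis, CPM) for the 17 library numbers present in both regions of a group, coloured by group. The 8 WT points run from 34.08 and 75.9 CPM to 82.03 and 253.7 CPM, and the 9 TG points lie from 93.12 CPM upward in brainstem and from 255.8 CPM upward in hippocampus.

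Sums of cell type markers were set beside Gabra2. After group means were removed, its correlation with the summed level of 7 GABAergic neuron markers was -0.444 in brainstem and -0.294 in hippocampus, and with 8 general neuron markers -0.226 and 0.0577. Its correlation with the GC slope of a library, the trend of its log2 deviations on the GC content of genes, was -0.25 and -0.0766. The value farthest from 0 among 11 marker sums and the GC slope was with 7 hippocampal markers in hippocampus, at -0.574. These correlations are over 23 and 24 libraries and share the scaling of a library. The part of these measures in the spread of Gabra2 was not tested.

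The other genes of the chromosome 5 cluster gave smaller fitted differences than Gabra2. Gabrg1, a gamma subunit found in few neuron types and in some glia, gave 45.1 ± 7.63 CPM in WT_SD (n = 5) and 49.7 ± 8.09 in TG_SD brainstem (n = 6), with a fitted log2 fold change of 0.05 (SE 0.0521). On HFD it was 0.02 (SE 0.0643) in brainstem and -0.16 (SE 0.0795) in hippocampus. The hippocampus means on HFD went the other way, with 28.5 ± 1.84 CPM in TG and 24.9 ± 4.09 in WT (n = 6 each), and the fit without surrogate variables gave 0.17 (SE 0.0975). Gabra4, an alpha subunit of receptors outside synapses, gave -0.04 (SE 0.0655) on SD and 0.20 (SE 0.0813) on HFD in brainstem, and 0.01 and -0.00063 in hippocampus. Gabrb1, a beta subunit, lay between -0.10 and 0.03 in the 4 contrasts.

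Around Gabra2, 61 annotated genes start within 2000000 bases in the GRCm38 annotation, of which 9 not on the list were tested in brainstem and 7 in hippocampus. None was called in TG against WT by edgeR on either diet in either region. Their log2 fold changes ranged from -0.39 to 0.08 on SD and -0.22 to 0.07 on HFD in brainstem, and from -0.14 to 0.01 and -0.23 to 0.10 in hippocampus.

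Gabra3, an alpha subunit prominent on monoamine and other brainstem neurons, differed little in the fit, but its HFD libraries did not overlap. In brainstem the WT_HFD libraries gave 113.1, 123.1, 113.7, 107.7, 126.6 and 126.8 CPM and the TG_HFD libraries 127.6 to 149.7 CPM, with a median of 132.3. In hippocampus the WT_HFD libraries gave 71.96, 80.18, 75.41, 81.68, 71.82 and 80.2 CPM and the TG_HFD libraries 85.03 to 101.6 CPM, with a median of 91.49. All TG_HFD libraries were thus above all WT_HFD libraries in both regions. Taking each region alone, 0.39% of genes showed this in brainstem and 1.02% in hippocampus. On SD, where the Gabra3 libraries of TG and WT overlapped, these shares were 0.292% and 0.196%.

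The fitted log2 fold change of Gabra3 on HFD was 0.07 (SE 0.0468) in brainstem and 0.15 (SE 0.0644) in hippocampus, and 0.17 and 0.25 without surrogate variables. The GC slope was highest in WT_HFD, at 0.114 ± 0.0654 in brainstem and 0.0958 ± 0.0737 in hippocampus (log2 per 10% GC), against -0.0395 ± 0.16 and -0.0546 ± 0.0472 in TG_HFD (n = 6 each). The longest transcript of Gabra3 has 43.1% GC, where the median tested gene has 49.3%. With each library corrected for GC content, the log2 fold changes of Gabra3 on HFD were 0.09 and 0.18. The slope differed between the same groups, and its part in the Gabra3 values was not tested.

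Gabra5 and Gabrb2 had fitted differences of both signs in TG against WT. In brainstem, Gabra5 gave -0.10 (SE 0.0572) on SD and 0.14 (SE 0.0699) on HFD, and in hippocampus 0.0024 (SE 0.031) and -0.02 (SE 0.0406). Gabrb2, a beta subunit, lay between -0.09 and 0.08 in the 4 contrasts. In brainstem on HFD its value of -0.09 went against the means, 40.8 ± 13.7 CPM in TG and 34.6 ± 7.56 in WT (n = 6 each), and was 0.22 (SE 0.176) without surrogate variables. Over the 7 genes the median log2 fold change was 0.03 on SD and 0.07 on HFD in brainstem and 0.01 and -0.00063 in hippocampus, and over all tested genes it was 0.00129, 0.00554, -0.000584 and -0.0054 in that order.

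On HFD the values of the other 6 genes depended on the surrogate variables, some little and some much. In brainstem, Gabra4 was 0.20 with these variables and 0.26 without, and Gabrb2 was -0.09 and 0.22. Without them, all 7 genes were higher in TG_HFD than in WT_HFD in both regions, beside 52.1% of tested genes in brainstem and 51.1% in hippocampus. Leaving Gabra2 aside, the log2 differences were then 0.14 to 0.26 in brainstem and 0.02 to 0.25 in hippocampus. The median of the 7 was 0.22 in brainstem and 0.15 in hippocampus, beside 0.0076 and 0.0036 for all genes. The sign differed between the fits for 1 gene in brainstem (Gabrb2) and for 4 in hippocampus (Gabra4, Gabra5, Gabrb1 and Gabrg1). On SD the medians of the 7 without surrogate variables were 0.02 and 0.05. There the sign differed between the fits for 2 genes in brainstem and for 0 in hippocampus. With and without these variables, Gabra4 in brainstem was -0.04 and 0.02, and Gabrb2 was 0.02 and -0.05. With each library corrected for GC content in place of the surrogate variables, the other 6 genes gave 0.0092 to 0.17 in brainstem and -0.06 to 0.18 in hippocampus, where Gabrb1 was the gene below 0.

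**Figure D3:**
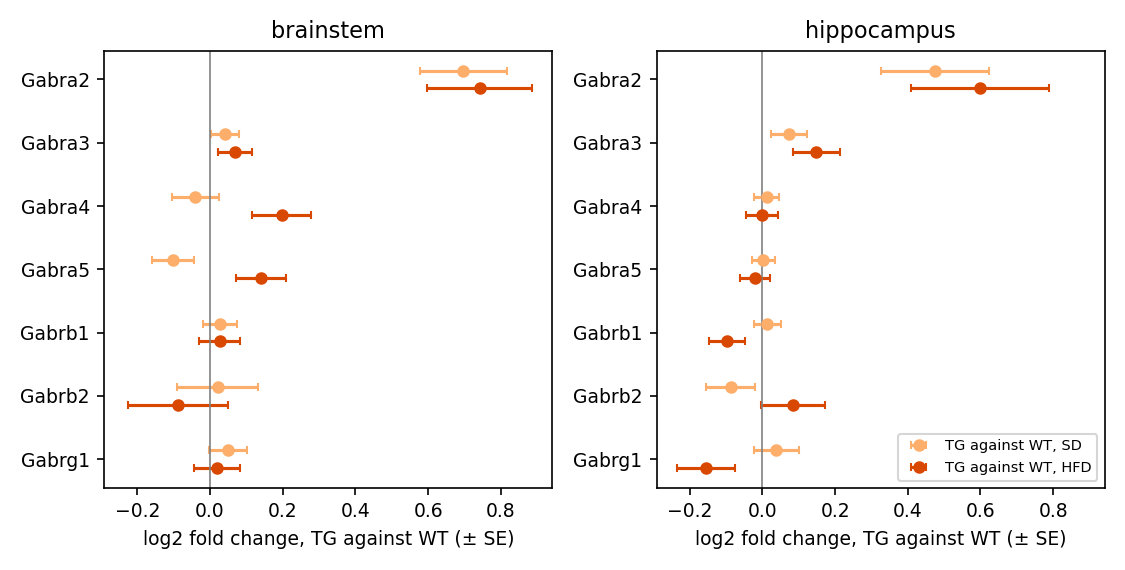
Fitted log2 fold change of the 7 subunit genes in TG against WT (x axis), with bars for ± SE, on SD (light) and HFD (dark), in brainstem (left) and hippocampus (right). Gabra2 lies at 0.70 and 0.74 in brainstem and at 0.47 and 0.60 in hippocampus, and the other genes lie between -0.16 and 0.20, in the fit with surrogate variables.

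Diet moved none of the 7 genes past the threshold. In WT brainstem, HFD against SD called 0 of 7 genes beside 0% of all tested genes, and 2 of 7, Gabra5 and Gabra4, had an unadjusted p below 0.05 by edgeR, beside 5.43% of all genes. Gabra5 was at 46.73, 47.33, 53.33, 57.44 and 59.74 CPM in WT_SD and at 38.46 to 48.22 CPM in WT_HFD, and the fitted log2 difference was -0.22 with an SE of 0.0618 and an adjusted p of 0.896 by edgeR. The groups overlapped in part, since 2 WT_SD libraries lay below the highest WT_HFD library. Gabra4 differed by -0.19 (SE 0.0717, edgeR adjusted p = 0.896).

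In TG brainstem 0 of 7 genes were called by diet, beside 0.0075% of genes, and none had an unadjusted p below 0.05, beside 6.91% of all genes. Gabra2 differed by 0.08 in TG (95% interval -0.14 to 0.31) and by 0.04 in WT (-0.22 to 0.30), with edgeR adjusted p of 0.931 and 0.987. The interaction, the difference between the diet effects of TG and WT, called 0 of 7 beside 0.0075% of genes. It was 0.24 (SE 0.0899) for Gabra5 and 0.24 (SE 0.104) for Gabra4, the 2 genes with an unadjusted p below 0.05 (4.83% of all genes), both with an edgeR adjusted p of 0.993. For Gabra2 it was 0.04 (95% interval -0.32 to 0.41).

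In hippocampus, diet called 0 of 7 in WT, 0 of 7 in TG and 0 of 7 in the interaction, beside 0% of genes in each. An unadjusted p below 0.05 was reached by 1 gene each, Gabrg1 in WT (log2 difference of 0.19, SE 0.0696, adjusted p = 0.721 by edgeR), Gabra3 in TG (0.10, SE 0.0461, adjusted p = 0.643) and Gabrg1 in the interaction (-0.19, SE 0.0916, adjusted p = 0.822). Gabra2 differed with diet by -0.09 in WT (95% interval -0.41 to 0.22) and by 0.03 in TG (-0.24 to 0.30). The share of all genes with such a p was 6.4%, 7.08% and 5.98% in that order. The values of Gabrg1 rested on the surrogate variables: its means were 25.7 ± 4.44 CPM in WT_SD and 24.9 ± 4.09 in WT_HFD, and without these variables its log2 difference with diet in WT was -0.03 (SE 0.0985) and its interaction 0.04 (SE 0.138).

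Without surrogate variables, all 7 genes were lower on HFD than on SD in WT of both regions, with medians of -0.15 in brainstem and -0.04 in hippocampus, and 5 of the 7 hippocampus values had the other sign in the fit with them. Gabra5 in WT brainstem was then -0.27 (SE 0.0701, edgeR adjusted p = 0.714), and Gabra4 -0.28 (SE 0.112) and Gabra3 -0.15 (SE 0.0667) had the same adjusted p. DESeq2 called no listed gene in any diet or interaction contrast of either region.

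The regions differed in all 7 genes, by edgeR's quasi-likelihood test on all 47 libraries with the mean of the 4 hippocampus groups set against the mean of the 4 brainstem groups. Both regions came from mice of the same groups, so libraries of the regions can share a mouse, and this test treats them as independent. A second fit used only the libraries of the 17 numbers present in both regions of a group, with group and number as a block. All 7 genes kept their direction and call in it. That block takes a number as a mouse, which the labels do not say. The background is high, since 60.2% of 13458 genes were called between regions. Higher in hippocampus were Gabra4 by 6.56-fold, Gabra5 by 4.58-fold, Gabra2 by 2.75-fold, Gabrb1 by 2.73-fold and Gabrb2 by 2.67-fold. Higher in brainstem were Gabrg1 by 1.79-fold and Gabra3 by 1.66-fold. The median log2 fold change of the 7 was 1.45, beside -0.02 for all genes.

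Gabra4 lay between 14.45 and 26.8 CPM over the brainstem libraries and between 125 and 160.5 CPM over the hippocampus libraries, so no libraries of the regions overlapped. The fitted log2 difference was 2.71 with an SE of 0.0407 and an adjusted p of 3.56e-46 by edgeR. Gabra5 lay between 38.46 and 59.74 CPM in brainstem and between 217 and 253.9 CPM in hippocampus, again without overlap, and it differed by 2.20 (SE 0.0275, edgeR adjusted p = 1.84e-49).

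For Gabra2 the regions overlapped, because the lowest WT hippocampus library, at 75.9 CPM, was below the TG brainstem libraries. That library was also below WT_SD number 6 (82.03 CPM) and WT_HFD number 1 (80.34 CPM) of brainstem. Over all groups the log2 difference of Gabra2 was 1.46, with an SE of 0.0916 and an adjusted p of 4.92e-20 by edgeR. With WT_SD libraries alone compared it was 1.62. Gabrb1 differed by 1.45 (SE 0.0479, adjusted p = 1.85e-31) and Gabrb2 by 1.42 (SE 0.0762, adjusted p = 1.14e-22). Gabra3 differed by -0.73 (SE 0.0316, adjusted p = 1.39e-26) and Gabrg1 by -0.84 (SE 0.0553, adjusted p = 3.48e-19). The chromosome 5 cluster thus held genes of both directions.

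Among other subunit genes of the family, Gabrd, the delta subunit of receptors outside synapses, was 7.62-fold higher in hippocampus, and Gabrg3, a gamma subunit, 1.59-fold. Gabrq, the theta subunit known from monoamine and hypothalamic neurons, was 34.4-fold higher in brainstem, with means of 19.2 CPM there and 0.582 CPM in hippocampus. In TG against WT, diet and interaction contrasts, none of these was called where it was tested, which left out Gabrd in brainstem and Gabrq in hippocampus for low counts.

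**Figure D4:**
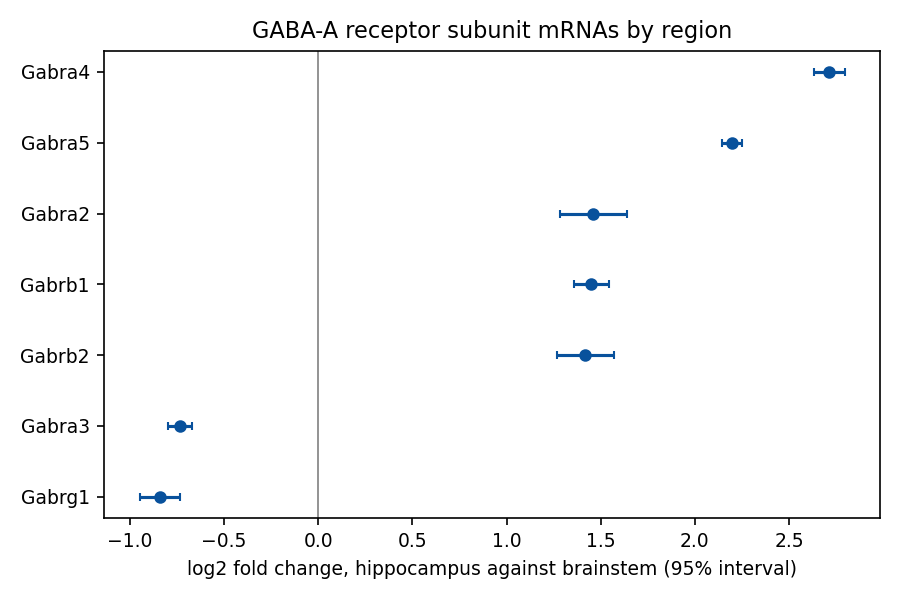
Fitted log2 fold change between hippocampus and brainstem (x axis, values above 0 are higher in hippocampus) with its 95% interval, for the 7 listed subunit genes. Gabra4 at 2.71 and Gabra5 at 2.20 are the highest, and Gabra3 at -0.73 and Gabrg1 at -0.84 lie below 0.

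Levels of different genes can be compared only per length, and CPM were divided by the exon length of the annotation in kilobases. In brainstem the order of the listed genes was Gabra3 (33.3 ± 2.95 CPM per kb, n = 23), Gabra5 (16.4 ± 1.68), Gabra2 (10.8 ± 3.14), Gabrb2 (6.11 ± 1.41), Gabrg1 (5.77 ± 0.87), Gabrb1 (5.15 ± 0.624) and Gabra4 (3.37 ± 0.483). Gabrb2, Gabrg1 and Gabrb1 lay within their SDs of each other. In hippocampus the order was Gabra5 (79.7 ± 3.25 CPM per kb, n = 24), Gabra2 (30.6 ± 8.25), Gabra4 (23.4 ± 1.42), Gabra3 (21.2 ± 2.15), Gabrb2 (17.3 ± 2.19), Gabrb1 (14.8 ± 1.69) and Gabrg1 (3.41 ± 0.454). From Gabra2 down to Gabrb1, the ranges of mean ± SD of neighbours in this order overlapped. Over both genotypes, Gabra5 at the top and Gabrg1 at the bottom stood clear. In TG hippocampus alone Gabra2 (36.2 ± 1.92 CPM per kb, n = 12) also stood clear of Gabra4 (24.1 ± 1.2), while in WT hippocampus (25.0 ± 8.43, n = 12) it lay within its SD of Gabra4 (22.7 ± 1.26). Exon length counts every annotated exon, so a long 3′ end that is little used lowers the value.

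The shares of the 4 listed alpha subunits in their own sum of CPM per kb differed between regions. In brainstem Gabra3 took 52.2% ± 2.42 (n = 23), Gabra5 25.8% ± 1.94, Gabra2 16.7% ± 3.68 and Gabra4 5.27% ± 0.429. In hippocampus Gabra5 took 51.7% ± 3.45 (n = 24), Gabra2 19.5% ± 4.15, Gabra4 15.2% ± 0.777 and Gabra3 13.7% ± 0.836. By genotype, Gabra2 took 13.5% ± 2.69 in WT (n = 11) and 19.6% ± 0.926 in TG brainstem (n = 12), and 16.9% ± 4.55 in WT and 22.1% ± 0.615 in TG hippocampus (n = 12 each). Over both diets the genotypes overlapped in both regions. The highest WT share, 18.23% in brainstem and 23.37% in hippocampus, lay above the lowest TG share, 17.73% and 20.97%. Within a diet the brainstem shares did not overlap. They reached 15.63% in WT_SD against at least 17.73% in TG_SD, and 18.23% in WT_HFD against at least 19.03% in TG_HFD.

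**Figure D5:**
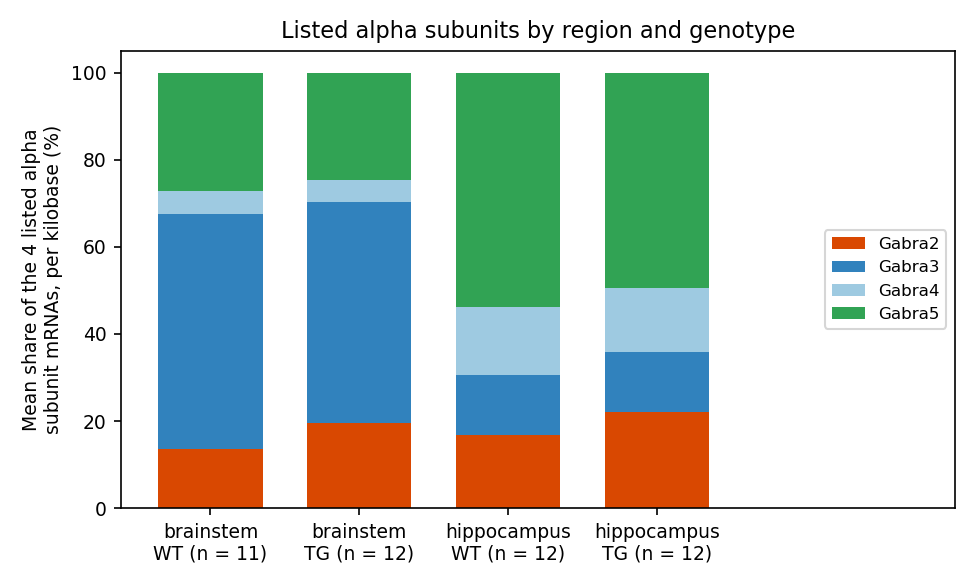
Mean share of each listed alpha subunit gene in the summed level of these 4 genes, per kilobase of exon (y axis, percent, from 0), by region and genotype (x axis) over both diets. Gabra3 is the largest block in brainstem and Gabra5 in hippocampus, and the Gabra2 block goes from 13.5% in WT to 19.6% in TG brainstem and from 16.9% to 22.1% in hippocampus.

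The listed genes varied together in a few pairs once group means were removed. Gabrb1 and Gabrb2, on different chromosomes, had r = 0.758 over 23 brainstem and 0.694 over 24 hippocampus libraries. Gabra4 and Gabrg1 had 0.757 and 0.749, and Gabra3 and Gabra4 0.731 and 0.555. The overlapping neighbours Gabra4 and Gabrb1 had only 0.157 and 0.22. Gabra2 correlated with its cluster neighbours at 0.365 and 0.361 for Gabra4, 0.296 and 0.357 for Gabrg1, and -0.152 and -0.107 for Gabrb1.

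Measures of the libraries moved with some of these genes, and their part in the correlations was not tested. All correlations beyond 0.7 in either direction are given here. In brainstem, Gabrg1 had r = -0.788 with the GC slope and -0.702 with 7 GABAergic neuron markers, Gabra4 -0.736 with the same markers, and Gabrb1 0.727 with 7 hippocampal markers. In hippocampus, Gabrg1 had 0.787 with 7 astrocyte markers, and Gabrb1 had -0.767 with 4 markers of oligodendrocyte precursors and -0.718 with 5 of glutamatergic neurons. Gabra4 had -0.678 and -0.601 with the GC slope in brainstem and hippocampus. The longest transcripts of all 7 genes hold less GC, 35.3% to 47.1%, than the median tested gene. Gabrb2 spread widely in TG_HFD brainstem, at 19.11, 53.16, 31.1, 38.97, 48.96 and 53.22 CPM, and 99.03% of genes had a smaller SD of log2 CPM there.

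Among 12619 genes tested in both regions, those whose log2 CPM followed Gabra2 best over all libraries, by the lower of the correlations in the regions, were Gm15446 (r = 0.876 in brainstem, 0.718 in hippocampus), Zfp932 (0.853, 0.677), the human transgene (0.837, 0.648), Thy1 (0.841, 0.641) and Cd200 (0.673 in hippocampus and a lower value in brainstem). Group means were not removed here, so the difference of Gabra2 between TG and WT enters these correlations. This list and the next hold the highest of many values, which are high in part by selection. Thy1 is the gene whose promoter drives the transgene. Gm15446 and Zfp932 are on chromosome 5, as is Gabra2, but do not start within 2000000 bases of it. Over WT libraries alone (11 and 12), the list was another one: H3f3a-ps1 (0.741, 0.753), Gm6749 (0.873, 0.713), Gm4938 (0.833, 0.697), Gm10257 (0.789, 0.695) and Apip (0.685, 0.726), and all of these except Apip are annotated as processed pseudogenes, which can share reads with their parent genes and are uncertain.

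Genes that work with GABA-A receptors were followed in 5 lists of 48 genes in all, the other subunits among them, with 40 tested in each region. None was called in any of the 10 genotype, diet and interaction contrasts, and between 1 and 5 of the 40 (2.5% to 12.5%) had an unadjusted p below 0.05 by edgeR, beside 4.83% to 11.3% of all genes. In hippocampus on HFD, Hap1, which helps carry receptors along microtubules, had an adjusted p of 0.0343 by edgeR, with a log2 fold change of 0.27 that stayed under the fold threshold.

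Between regions genes of these lists differed in both directions, in counts that stand beside the 60.2% called among all genes. Of 19 tested receptor partners, 9 were higher in hippocampus and 2 in brainstem, led by Shisa7, an auxiliary subunit (8.62-fold higher in hippocampus), and Plcl1, a protein that binds receptors for their trafficking (2.32-fold higher in brainstem). Also higher in hippocampus were Slitrk3, Insyn1, Plcl2, Trak1, Nlgn2, Nsf and Lhfpl4, by 3.47-fold to 1.30-fold, and Rdx was 1.65-fold higher in brainstem. Hap1 differed least, by 0.03 on the log2 scale. Gphn, the gephyrin scaffold of inhibitory synapses, differed by 0.22 on the log2 scale, under the fold threshold. Of 8 genes of GABA synthesis and transport, Gad1 was higher in hippocampus (1.49-fold) and 4 were higher in brainstem, Slc6a11, the astrocytic GABA transporter (3.46-fold), Abat, which breaks GABA down (2.26-fold), Slc32a1, which fills vesicles with GABA (2.22-fold), and Gad2, a GABA-making enzyme like Gad1 (1.31-fold), while Slc6a13 differed least, by -0.15 on the log2 scale. Of 6 GABA-B receptor genes, Kctd16, Kctd12, Gabbr2 and Gabbr1 were higher in hippocampus by 6.98-fold to 1.43-fold, Kctd8 was 3.20-fold higher in brainstem, and Kctd12b, at -0.30 on the log2 scale, was not called. Of the chloride transporters Slc12a2, which brings chloride into cells, was 4.18-fold higher in brainstem while Slc12a5, which moves it out of neurons, differed by 0.12 on the log2 scale and was not called.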

How the data were processed

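The deposited files held whole-number read counts per gene and library, without normalization. The authors checked reads with FastQC 0.11.9 and aligned them with STAR 2.7.9a to a mouse genome with the human transgene added (versions from the submitters' processing notes). The counting step is not given in the sources used here. Poly(A) libraries were single-end from a kit that does not mark strand, and the authors left 1 WT_SD brainstem sample out for RNA quality. The authors also used DESeq2 1.32.0.

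Here, genes that averaged 50 or more counts per library in a region were tested with edgeR 4.0.16 in R 4.3.3, with TMM scaling, the 4 groups of a region in 1 model and 4 surrogate variables from svaseq (sva 3.50.0) on TMM-scaled counts, their number set by num.sv. In a first run the variables came from unscaled counts. They were changed after those results were seen because depth enters them there, and that version is kept as an added alternative. Regions were compared in 1 model of 8 groups without surrogate variables. The SE of a fold change is its size divided by the root of the F statistic, and 95% intervals are normal ones from it. Log2 CPM used a prior count of 2. Replicates of a group within a region are separate mice per the methods. Both regions were taken from the mice of each group, so the 47 libraries of the region test are not all separate mice. Counts of the 7 genes ranged from 180 to 4856 per library, so depth limits them little. The scripts were tested on simulated counts. Alternatives were DESeq2 1.42.0, RLE scaling, 0, 1 or 2 surrogate variables, other count filters, no fold threshold, 2 groups alone, the replicate number as a block, a GC correction and each library left out in turn.

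The 7 genes, the lists and the rules for named genes were chosen with earlier results of these data known. Named were the 7 genes, pathway genes called in any contrast or with the largest or smallest region difference of their list, neighbours called within 2000000 bases, and the 5 genes most correlated with Gabra2. Gphn was named after its value was seen. Some genes that the rule names are not reported here. Symbols, exon length and GC content came from GENCODE on GRCm38, another build than that of the alignment.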

Additional observations from a re-analysis of the deposited data

Results flagged for a closer look

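In 3 of 56 combinations of a listed gene and a group, 1 library stood apart from the others by the ratio of its gap to the nearest library over the range of the group. Chance alone gives about 1 in 20. Gabra2 in TG_HFD hippocampus had its highest library, number 4, at 314.4 CPM with the next at 278.3 (ratio 0.748). Gabra3 in TG_HFD brainstem had number 3 at 149.7 CPM with the next at 135.1 (ratio 0.663), and Gabra4 in WT_SD hippocampus had number 6 at 152.3 CPM with the next at 139.9 (ratio 0.69). The low Gabra2 value of number 7 in WT_SD, in either region, did not pass the same ratio.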

How the results depend on the processing

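The log2 fold change of Gabra2 in TG against WT kept its direction in every alternative, within 0.64 to 0.78 on SD and 0.67 to 0.78 on HFD in brainstem and 0.38 to 0.51 and 0.51 to 0.62 in hippocampus. With single libraries left out it ranged from 0.53 to 0.78, 0.70 to 0.81, 0.26 to 0.57 and 0.35 to 0.66 in the same order. The call of Gabra2, from which nothing is read, was less stable. In brainstem on SD the number of listed genes called went from 1 to 0 with 0 or 1 surrogate variables, with only the 2 groups compared, with the GC correction and with the replicate block. In brainstem on HFD it went from 1 to 0 with DESeq2, with the replicate block and with surrogate variables from unscaled counts, and ranged from 0 to 1 with single libraries left out, being 0 in 7 of 23 (TG_SD 1, TG_HFD 1, 7 and 8, WT_SD 4, WT_HFD 2 and 8). In hippocampus on HFD it went from 0 to 1 with 0, 1 or 2 surrogate variables, without a count filter, with only the 2 groups compared and with the replicate block, and ranged from 0 to 1 with single libraries left out, being 1 without WT_SD 7. In the other 7 contrasts of these counts no alternative changed the 0. The SD of log2 CPM of Gabra2 ranged from 0.0643 to 0.105 in TG brainstem and from 0.0469 to 0.0778 in TG hippocampus with single libraries left out, the lowest without TG_HFD number 3 and TG_HFD number 4, and stayed within 1.5 times in WT. All 7 region differences kept direction and call in all 35 values from other settings and all 329 with a library left out, and the replicate block gave 1.353 for Gabra2. The other genes moved by more than the group SD in 28 genotype values, all on HFD, and did not in 236. Diet and interaction values without surrogate variables, an alternative chosen after seeing the data like the group SDs with libraries left out, moved by more than the group SD in 4 cases and did not in 38. The cause of these changes was not tested. Between groups, the replicate number did not pair the samples by the rule used. Same-numbered libraries of different groups had a median correlation of 0.0123 in brainstem and 0.0702 in hippocampus. This does not bear on the regions. Between regions, libraries of the same group had a median of 0.125 with the same number and -0.0242 with different numbers.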
